A study of Mus musculus with 3 samples.

Results

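The genes described here were p53, its regulators and a set of its targets that act on the cell cycle, stress and growth and not directly on apoptosis: Trp53, Mdm2, Mdm4, Cdkn1a, Ccng1, Trp53inp1, Gadd45a, Gadd45b, Sesn1 and Btg2. They were looked up by symbol in a table of RNA sequencing values, by a list drawn up with earlier results of these data known. All 10 had a value, among 12852 genes in the table, and all 10 were among the 9722 genes tested. The cells were B16F10, a pigmented mouse melanoma line, in which Med23 had been knocked down (2 libraries, titled siMed23A and siMed23B) or which served as wild type control (1 library, titled siCtrl). Both groups were grown in DMEM with serum. The Med23 protein belongs to Mediator, a large complex through which transcription factors reach RNA polymerase II, and by its title the series asked whether Med23 bears on pigment and DNA repair genes through Mitf. Whether A and B stand for different siRNAs, separate cultures or repeats is not said in the labels, so the spread between them may be technical.

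The p53 protein, encoded by Trp53, is a transcription factor that is held at a low level by Mdm2 and Mdm4 and builds up after DNA damage and other stress. It then binds near its target genes and raises their transcription. Mdm2 is itself a target, so the pathway restrains itself. Among the other targets Cdkn1a halts the cell cycle by binding cyclin-dependent kinases, while Ccng1, Trp53inp1, Sesn1, Btg2 and Gadd45a act in growth arrest, autophagy, redox balance and repair. Several of these genes also respond to signals other than p53, above all Gadd45b and Btg2.

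Values are RPKM, reads corrected for how long the transcript is and for the size of the library. These corrections allow rough comparison between genes but do not by themselves make libraries comparable. Before deposit the values had been brought to the same distribution in the 3 libraries, each library summing to 255492 RPKM. They therefore show a gene's place relative to other genes and hold no read depth. Ratios and tests are on the log2(RPKM + 1) scale, with knockdown over control, and the test was limma with Benjamini-Hochberg adjustment over all 9722 genes at a threshold of 0.05. The lone control was taken to vary like a knockdown library, and an exact permutation test of 2 libraries against 1 could not give a one-sided p below 0.333. Med23 itself was 1.65 and 1.61 RPKM in the knockdown libraries, against 5.23 RPKM in the control, 3.20-fold lower (log2 ratio -1.24, SE 0.11, limma adjusted p = 0.00121). All 10 melanocytic markers looked up had values, with a sum of 3053 and 2942 RPKM in the knockdown libraries and 7143 RPKM in the control. Whether their lower level bears on the 10 genes was not tested. Of the markers of other cell types, 3 of 7 for fibroblasts, 0 of 5 for keratinocytes, 1 of 4 for endothelium and 1 of 7 for leukocytes had values, none above 2.29 RPKM in any library.

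Both knockdown values were below the control in 5 of the 10 genes, beside 44.2% of all tested genes, and both above it in the other 5, beside 46.6%. By limma 5 of the 10 genes were lower, 3 were higher and 2 did not pass the test. Of all tested genes 24.0% were called lower and 26.3% higher, 50.3% in all, so a call by itself was common in this comparison. Changes of at least 2-fold in both knockdown libraries were rarer. Such a fall was seen in 4 of the 10 genes (Mdm2, Cdkn1a, Ccng1 and Trp53inp1), beside 4.76% of all tested genes. Such a rise was seen in 1 of the 10, Gadd45b, beside 4.97% of all tested genes. The median log2 ratio of the 10 genes was -0.34 and that of all tested genes 0.01. In these bulk libraries, fewer cells holding a transcript and less of it per cell cannot be told apart.

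**Figure D1:**
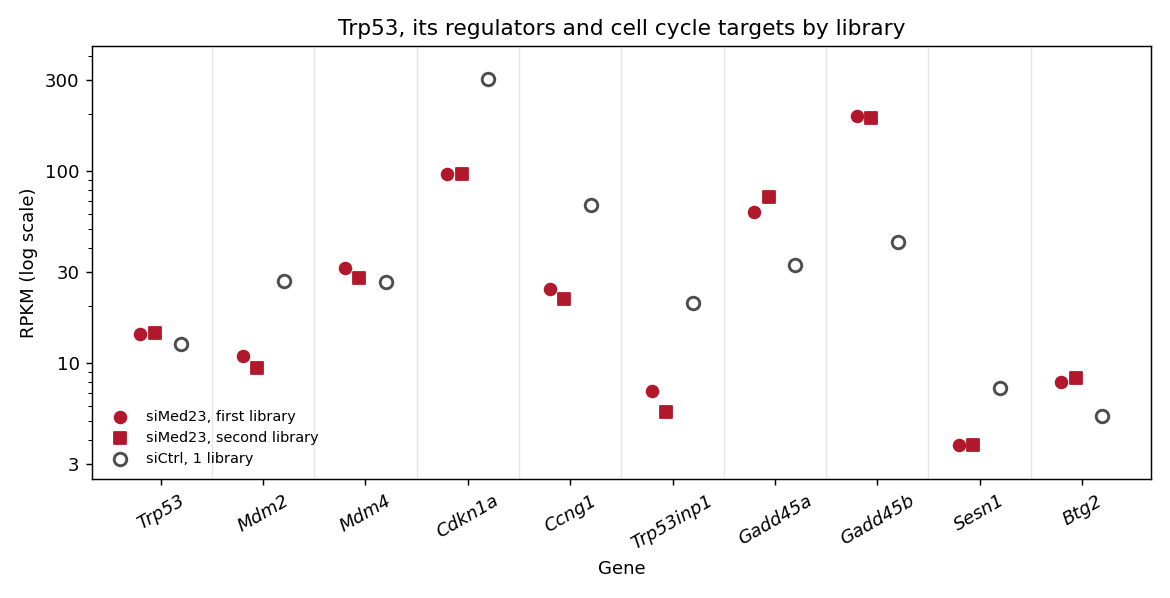
RPKM of each gene (log axis) in the 2 knockdown libraries (filled circle and square) and the 1 control library (open circle). Cdkn1a, Ccng1, Mdm2, Trp53inp1 and Sesn1 lie lower in both knockdown libraries, Gadd45a, Gadd45b and Btg2 lie higher in both, and Trp53 and Mdm4 stay near their control values.

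Trp53 (ENSMUSG00000059552) was little different between the groups. It was 14.2 and 14.3 RPKM in the knockdown libraries, against 12.7 RPKM in the control. Both knockdown values were above the control by a small margin, and the log2 ratio of 0.16 (95% interval -0.06 to 0.38) did not pass limma's test (adjusted p = 0.185). The interval leaves room for a rise of that upper size, and mRNA says nothing of the amount of p53 protein, which is mostly set by its breakdown. Trp53 overlaps Wrap53 on the opposite strand, and whether the libraries kept the strand is not given in the sources used here, so some reads of the 2 genes may be mixed. Wrap53 was 1.75 and 1.53 RPKM in the knockdown libraries and 1.31 RPKM in the control, well under Trp53.

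The 2 regulators parted from each other. Mdm2 (ENSMUSG00000020184), the ubiquitin ligase that marks p53 for breakdown, was 10.98 and 9.499 RPKM in the knockdown libraries, against 26.7 RPKM in the control. Both knockdown libraries were far under the control, 2.43-fold and 2.81-fold lower, with a log2 ratio of -1.31 (limma adjusted p = 0.00109, SE 0.11). Mdm4 (ENSMUSG00000054387), its relative that binds and masks p53 without being an efficient ligase, was 31.5 and 27.7 RPKM in the knockdown libraries, against 26.5 RPKM in the control. The knockdown values of Mdm4 were further from each other than the lower of them was from the control, and the log2 ratio of 0.15 (95% interval -0.10 to 0.40) did not pass (limma adjusted p = 0.259). With ratios corrected for transcript length and GC content, that of Mdm4 was 0.48 and did pass (limma adjusted p = 0.000769). In RPKM, the level of Mdm2 relative to Mdm4 was 0.349 and 0.343 in the knockdown libraries, against 1.01 in the control. Relative to Trp53 it was 0.771 and 0.662 in the knockdown libraries, against 2.11 in the control.

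Cdkn1a (ENSMUSG00000023067), which encodes p21, the inhibitor that stops cells at the entry to S phase, was by far the most abundant of the 10 genes in the control. It was 97.0 and 97.3 RPKM in the knockdown libraries, against 304 RPKM in the control. The knockdown libraries lay almost on each other and 3.12-fold under the control in their mean (log2 ratio -1.63, SE 0.05, limma adjusted p = 0.000112). Its place by RPKM was 399 and 395 among the 12852 genes in the knockdown libraries, against 106 in the control. Of all tested genes, 0.555% had a lower log2 ratio. Per unit of Trp53, Cdkn1a stood at 6.82 and 6.79 in the knockdown libraries, against 23.9 in the control.

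Windows around the starts of 9 of the genes were searched. The start region of Cdkn1a is shown because it was the one with a pair of CATG cores, the only paired p53 motif searched. Pairs with other core letters were not searched for, and the Trp53 stretch printed further below holds CTTG in such a pair. RefSeq (GRCm38.p6) gives Cdkn1a a pair of transcript starts 2790 bases apart. The 250 bases before the upstream start, chr17:29090729-29090978 on the plus strand, contain CATGNNNNNNCATG, the pair of CATG cores of a high-affinity p53 site, here in capitals and 48 to 35 bases before that start.
Cdkn1a upstream start: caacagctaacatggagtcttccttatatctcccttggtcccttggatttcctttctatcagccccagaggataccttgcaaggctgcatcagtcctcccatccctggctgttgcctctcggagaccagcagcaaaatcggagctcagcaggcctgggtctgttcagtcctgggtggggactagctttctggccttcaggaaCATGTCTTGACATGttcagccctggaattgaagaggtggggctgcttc
This motif reads the same on both strands. It was found in 1 of 12 start windows of 9 of the genes (no window was matched for Trp53inp1) and in 0.712% of the 32851 windows of all genes, each running from 250 bases before a start to 50 after it.

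The looser p53 decamer consensus, a single site of the kind that p53 binds in pairs, was found in 6 of these 12 windows, 1 for each of Cdkn1a, Mdm2, Ccng1, Sesn1, Gadd45a and Trp53, and in 8.36% of all windows. It was searched on both strands. In the Cdkn1a window a match takes in the first CATG core of the motif above, and another lies upstream of it. The matches outside Cdkn1a are printed in capitals with 30 bases on either side, to set genes that were lower in the knockdown libraries (Mdm2, Ccng1, Sesn1) beside one that was higher (Gadd45a) and one that did not pass the test (Trp53).
Mdm2, chr10:117710905-117710974, minus strand: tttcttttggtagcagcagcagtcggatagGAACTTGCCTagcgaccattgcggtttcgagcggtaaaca
Ccng1, chr11:40755432-40755501, minus strand: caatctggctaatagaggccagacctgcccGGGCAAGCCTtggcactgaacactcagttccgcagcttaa
Sesn1, chr10:41887236-41887305, plus strand: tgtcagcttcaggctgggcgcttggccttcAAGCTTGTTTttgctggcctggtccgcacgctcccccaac
Gadd45a, chr6:67037408-67037477, minus strand: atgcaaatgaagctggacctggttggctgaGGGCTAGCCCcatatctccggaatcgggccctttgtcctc
Trp53, chr11:69580254-69580323, plus strand: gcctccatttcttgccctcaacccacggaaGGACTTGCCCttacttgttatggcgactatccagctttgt
The matches were 40 to 31 bases before the start in Gadd45a and 186 to 177 bases before it in Mdm2, with the others in between. The match was present in genes that moved in either direction, and it describes the letters only. Second sites with mismatches were not searched for, so a lone match in capitals does not mean that a gene lacks a pair. Known p53 sites of Mdm2 lie in its first intron, outside these windows.

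Ccng1 (ENSMUSG00000020326), which encodes cyclin G1, a p53 target that recruits a phosphatase to Mdm2, was second to Cdkn1a in the control. It was 24.4 and 21.6 RPKM in the knockdown libraries, against 66.5 RPKM in the control, 2.72-fold and 3.09-fold lower (log2 ratio -1.49, SE 0.10, limma adjusted p = 0.000532). Both knockdown values were far under the control and differed from each other by 12.6% of their mean. Cdkn1a and Ccng1 kept a similar proportion, 3.97 and 4.52 in the knockdown libraries and 4.56 in the control.

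Trp53inp1 (ENSMUSG00000028211), a stress protein that promotes p53 activity and autophagy, was 7.17 and 5.56 RPKM in the knockdown libraries, against 20.7 RPKM in the control. It was 3.25-fold lower in mean RPKM, the largest such fold among the 5 genes that fell, with a log2 ratio of -1.57 (limma adjusted p = 0.00148, SE 0.15). Its knockdown libraries were also the furthest apart of the 10 genes, by 0.32 on the log2 scale, more than in 94.1% of tested genes, whereas the median gene differed by 0.09. Sesn1 (ENSMUSG00000038332), a sestrin that limits oxidative damage and restrains the growth kinase mTORC1, was 3.74 and 3.78 RPKM in the knockdown libraries, against 7.47 RPKM in the control. The knockdown values nearly coincided and were just short of 2-fold lower, with a log2 ratio of -0.83 (limma adjusted p = 0.00305, SE 0.11). Its mean over the 3 libraries was under 5 RPKM, so it was not tested when that minimum was set.

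**Figure D2:**
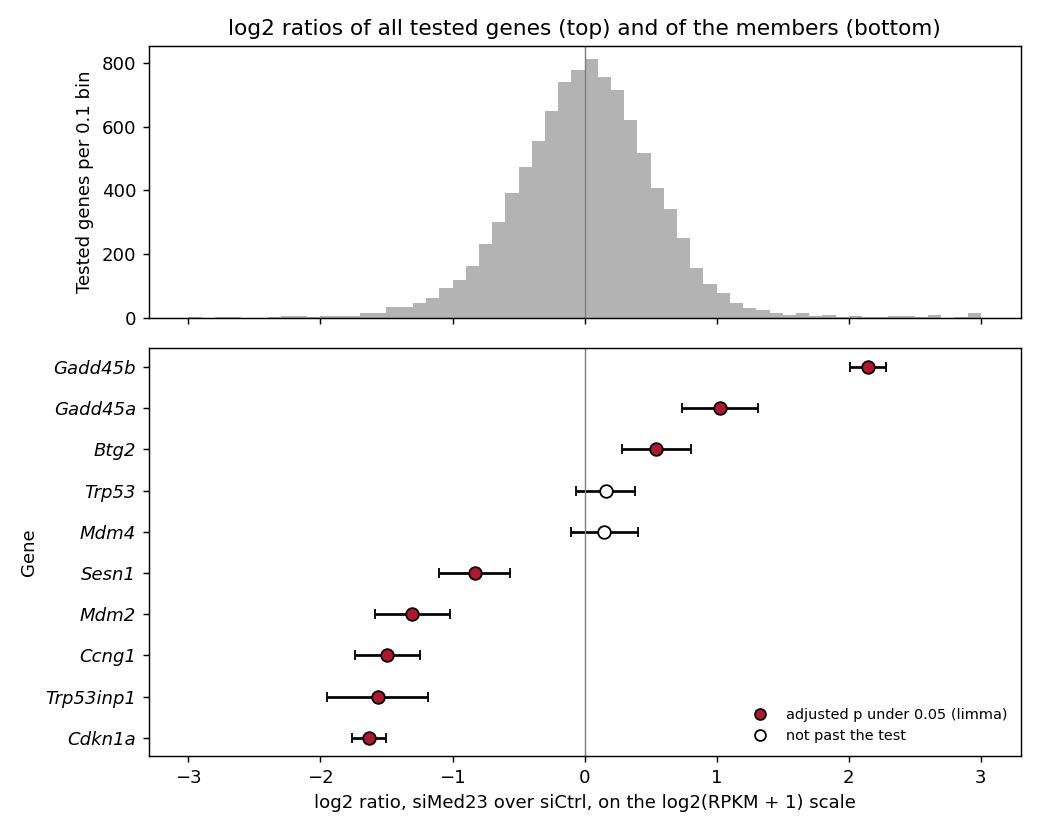
Top, the number of tested genes in each bin of the log2 ratio of knockdown over control, with values beyond the axis range placed in the end bins. Bottom, the log2 ratio of each of the 10 genes with its 95% interval from limma, filled where the adjusted p was under 0.05. Cdkn1a, Trp53inp1, Ccng1 and Mdm2 sit in the left tail, Gadd45b and Gadd45a in the right tail, and Trp53 and Mdm4 near the centre.

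The 3 genes that rose were Gadd45b, Gadd45a and Btg2. Gadd45b (ENSMUSG00000015312), which encodes a small stress protein that binds kinases of the p38 and JNK pathways and is induced by NF-kB and Tgf-beta, was 195 and 190 RPKM in the knockdown libraries, against 42.8 RPKM in the control. Both knockdown libraries were over 4 times the control, 4.56-fold and 4.45-fold higher, with a log2 ratio of 2.15 (limma adjusted p = 7.98e-05, SE 0.06), and 0.463% of tested genes had a higher ratio. Gadd45b was below Cdkn1a in the control and above it after knockdown. The ratio of Gadd45b to Cdkn1a in RPKM was 2.01 and 1.95 in the knockdown libraries, against 0.141 in the control.

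Gadd45a (ENSMUSG00000036390), a p53 target that acts in growth arrest at G2 and in repair, was 61.6 and 73.5 RPKM in the knockdown libraries, against 32.6 RPKM in the control. Both were above the control, by 1.89-fold and 2.25-fold, with a log2 ratio of 1.02 (limma adjusted p = 0.00214, SE 0.11). The 2-fold limit thus fell between its knockdown libraries. Corrected for transcript length and GC content, its log2 ratio was 0.78 and the call was kept. Btg2 (ENSMUSG00000020423), an antiproliferative protein that promotes removal of mRNA tails and is induced both by p53 and by growth signals, was 8.0 and 8.40 RPKM in the knockdown libraries, against 5.31 RPKM in the control. It rose least of the 3, 1.54-fold in the mean (log2 ratio 0.54, SE 0.10, limma adjusted p = 0.00971), and the call was lost when the control was taken to have 2 times the SD of a knockdown library (adjusted p = 0.0962).

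The start of Btg2 is shown because it had no p53 decamer match in its window but held TGACGTCA, the full cyclic AMP response element bound by Creb and Atf factors. This element, which reads the same on both strands, was in 1 of the 12 windows and in 1.79% of all windows. It lies 166 to 159 bases before the start. Gadd45b and Mdm4 also had no decamer match, and they did not hold TGACGTCA. Whether the element bears on the rise of Btg2 was not tested.
Btg2, chr1:134079274-134079361, minus strand: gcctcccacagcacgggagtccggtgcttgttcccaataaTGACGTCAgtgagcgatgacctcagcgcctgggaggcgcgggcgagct

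The order of the 10 genes by level changed between the groups. After knockdown the mean RPKM ran from Gadd45b (193 ± 3.24, SD, n = 2) through Cdkn1a (97.2 ± 0.216), Gadd45a (67.5 ± 8.40), Mdm4 (29.6 ± 2.67), Ccng1 (23.0 ± 2.05), Trp53 (14.3 ± 0.0728), Mdm2 (10.2 ± 1.05), Btg2 (8.20 ± 0.286) and Trp53inp1 (6.37 ± 1.14) to Sesn1 (3.76 ± 0.0261). The ranges of the 2 knockdown libraries did not overlap between any neighbours in that order. In the control the order was Cdkn1a, Ccng1, Gadd45b, Gadd45a, Mdm2, Mdm4, Trp53inp1, Trp53, Sesn1 and Btg2. There Mdm2 and Mdm4 were next to each other at 26.7 and 26.5 RPKM, and with 1 library no spread can be set beside that gap. Mdm2 moved to place 7 after knockdown, against 5 in the control, and Trp53inp1 to place 9, against 7.

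Close relatives of the targets moved in the same direction as the targets in some families and not in others. All 3 Gadd45 genes were higher after knockdown: Gadd45g was 17.0 and 14.8 RPKM in the knockdown libraries, against 1.17 RPKM in the control (log2 ratio 2.95, SE 0.12, limma adjusted p = 0.000209). All 3 sestrins were lower: Sesn2, like Sesn1 a stress-induced brake on mTORC1, was 2.78 and 2.84 RPKM in the knockdown libraries, against 6.32 RPKM in the control, with a log2 ratio of -0.94. Sesn3, known as a target of FoxO factors, was 19.0 and 19.5 RPKM in the knockdown libraries, against 28.1 RPKM in the control, with a log2 ratio of -0.52 and no call after correction for length and GC content (adjusted p = 0.332).

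Both G cyclins fell. Ccng2, the relative of Ccng1 that FoxO factors induce, was 16.1 and 15.7 RPKM in the knockdown libraries, against 33.5 RPKM in the control (log2 ratio -1.03, limma adjusted p = 0.000864). Among the other inhibitors of the Cip and Kip family, Cdkn1b, which encodes p27, was 104 and 108 RPKM in the knockdown libraries, against 154 RPKM in the control, with a log2 ratio of -0.53. Cdkn1b was above Cdkn1a in both knockdown libraries and below it in the control. Cdkn1c, which encodes p57, was low, at 1.08 and 1.51 RPKM in the knockdown libraries and 0.637 RPKM in the control, and its call as higher was lost with no filter (adjusted p = 0.0583) and after the length and GC correction (0.126).

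In the Btg and Tob family the directions were mixed. Btg1 and Btg3 were called higher with log2 ratios of 0.36 and 0.45, Btg1 not when no filter was set (adjusted p = 0.0657), and Tob1 lower with -0.52. The calls of Btg1, Btg3 and Tob1 were all lost at 2 times the control SD (adjusted p = 0.233, 0.170 and 0.0783), as were those of Sesn3 (0.0626) and Cdkn1c (0.252). The table gives the symbol Tob2 to a pair of gene IDs, and they differed: ENSMUSG00000048546 was 5.74 and 5.68 RPKM in the knockdown libraries and 6.89 RPKM in the control, not past the test, and ENSMUSG00000078960 was 19.4 and 17.2 RPKM in the knockdown libraries and 4.31 RPKM in the control (log2 ratio 1.86). The second ID had no match in GENCODE M21, the source of length and GC content. Its identity is thus uncertain, and it was not tested with that correction. Trp53inp2, a relative of Trp53inp1 that acts in autophagy, was 28.4 and 31.8 RPKM in the knockdown libraries and 32.6 RPKM in the control and did not pass. In all, 5 of the 12 paralog entries were lower, 5 higher and 2 not past the test, beside 24.0% and 26.3% of all tested genes, with a median log2 ratio of -0.17. At 2 times the control SD 3 were lower and 2 higher, beside 7.03% and 8.33% of all tested genes. At 3 times the counts were 0 and 2, beside 0.792% and 1.21%.

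**Figure D3:**
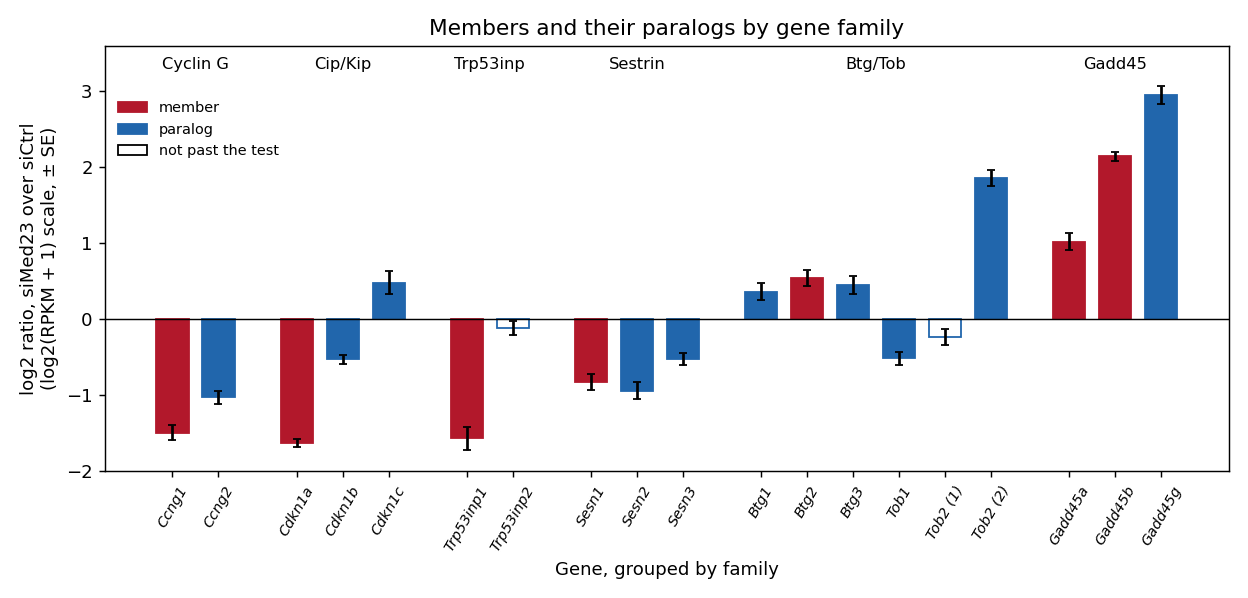
The log2 ratio of knockdown over control for the 7 of the 10 genes that belong to the families shown (red) and for their paralogs (blue), with limma's SE as error bars and white bars for genes not past the test. Tob2 (1) is ENSMUSG00000048546 and Tob2 (2) is ENSMUSG00000078960. The bars of the G cyclins and sestrins point down, those of the Gadd45 family point up, and the Cip/Kip and Btg/Tob families hold both.

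Other genes of the pathway gave a mixed picture. Of 23 tested regulators of p53, 3 were lower, 7 higher and 13 not past the test, beside 24.0% lower and 26.3% higher among all tested genes, so calls were no more frequent than in the table as a whole. The median log2 ratio was 0.08. With the control given 2 times the SD of a knockdown library 1 was lower and 3 higher, beside 7.03% and 8.33% of all tested genes. With 3 times the counts were 0 and 0, beside 0.792% and 1.21%. Rpl23, Rpl11 and Rpl5, ribosomal proteins that can bind Mdm2 and block it, rose by log2 ratios of 0.83, 0.76 and 0.75, with adjusted p = 0.000864, 0.000792 and 0.000743 by limma. Their levels are uncertain, because reads can be split between these genes and near-identical pseudogenes. Huwe1, another ubiquitin ligase for p53, was 6.23 and 5.90 RPKM in the knockdown libraries, against 11.2 RPKM in the control (log2 ratio -0.79). Named after their values were seen, Usp7, a deubiquitinase of Mdm2 and p53, and Atr, a damage kinase, were the other regulators that fell, with log2 ratios of -0.55 and -0.85. The call of Atr was lost with no filter (adjusted p = 0.0607), and both calls were lost at 2 times the control SD (0.0895 for Usp7 and 0.202 for Atr). The other regulators called higher, also named after their values were seen, were Hipk2, Rfwd2, Ppp1r13l and Trim28. Their log2 ratios were 0.58, 0.53, 0.53 and 0.41, and their calls too were lost at 2 times the control SD.

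Of 10 tested apoptosis targets, 3 were lower, 2 higher and 5 not past the test, a share of calls near the 24.0% lower and 26.3% higher of all tested genes, with a median log2 ratio of 0.03. At 2 times the control SD 1 was lower and 0 higher, beside 7.03% and 8.33% of all tested genes. At 3 times the counts were 0 and 0, beside 0.792% and 1.21%. Bbc3, which encodes Puma, an activator of apoptosis, was 21.8 and 20.4 RPKM in the knockdown libraries, against 13.9 RPKM in the control, and Siva1, another activator of cell death, was 32.6 and 29.2 RPKM in the knockdown libraries, against 19.4 RPKM in the control. Bcl2l1, whose main product Bcl-xL protects cells, fell to 5.54 and 5.78 RPKM in the knockdown libraries, against 15.4 RPKM in the control (log2 ratio -1.30, limma adjusted p = 0.000792). Bid and, named after its values were seen, Casp6 were also lower, with log2 ratios of -0.44 and -0.35. The calls of Bbc3, Siva1, Bid and Casp6 were lost at 2 times the control SD (adjusted p = 0.0636, 0.0583, 0.176 and 0.204), where that of Bcl2l1 was kept (0.0132).

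Of 17 tested targets in repair, metabolism and redox balance, 12 were not past the test, 4 were lower and 1 was higher, beside 24.0% lower and 26.3% higher among all tested genes. The share lower was thus near that of the whole table, and the median log2 ratio was -0.10. At 2 times the control SD 2 were lower, Polh and Ddit4, and 0 higher, beside 7.03% and 8.33% of all tested genes. At 3 times the counts were 0 and 0, beside 0.792% and 1.21%. Polh, a polymerase that copies past ultraviolet lesions, was 6.0 and 6.92 RPKM in the knockdown libraries, against 13.2 RPKM in the control, with a log2 ratio of -0.93 (limma adjusted p = 0.00297). Ddit4, an inhibitor of mTORC1 that also responds to low oxygen, was 175 and 187 RPKM in the knockdown libraries, against 301 RPKM in the control. Rrm2b, the p53-induced ribonucleotide reductase subunit, was 1.94 and 1.98 RPKM in the knockdown libraries, against 3.46 RPKM in the control. The AMPK subunits Prkab1 and, named after its values were seen, Prkab2 were called higher and lower, with log2 ratios of 0.40 and -0.47, and both calls were lost with no filter (adjusted p = 0.0618 and 0.0644) and after the length and GC correction (0.0990 and 0.0646).

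Of 15 other p53 targets 8 were lower, 3 higher and 4 not past the test, beside 24.0% lower and 26.3% higher among all tested genes, with a median log2 ratio of -0.32. At 2 times the control SD 3 were lower and 2 higher, beside 7.03% and 8.33% of all tested genes. At 3 times the counts were 1 and 0, beside 0.792% and 1.21%. Ephx1, an epoxide hydrolase, was 70.4 and 74.3 RPKM in the knockdown libraries, against 157 RPKM in the control (log2 ratio -1.11, limma adjusted p = 0.000359). Gtse1, which moves p53 out of the nucleus in G2, was 8.72 and 9.38 RPKM in the knockdown libraries, against 17.9 RPKM in the control. Hexim1, an inhibitor of the elongation kinase P-TEFb, was 10.5 and 10.98 RPKM in the knockdown libraries, against 5.11 RPKM in the control, and Plk2, a stress-induced kinase, was 30.8 and 34.9 RPKM in the knockdown libraries, against 16.9 RPKM in the control. The third gene that rose, named after its values were seen, was Thbs1, a matrix protein, with a log2 ratio of 0.81 and no call at 2 times the control SD (adjusted p = 0.0962). Also named after their values were seen, Phlda3, Tob1, Zmat3, Abhd4, Dcxr and Ptpn14 were the other genes called lower. Of these, Phlda3 kept its call at 2 times the control SD (limma adjusted p = 0.0262). After the length and GC correction Zmat3 was not called (0.117) and Ptpn14 changed sign.

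**Figure D4:**
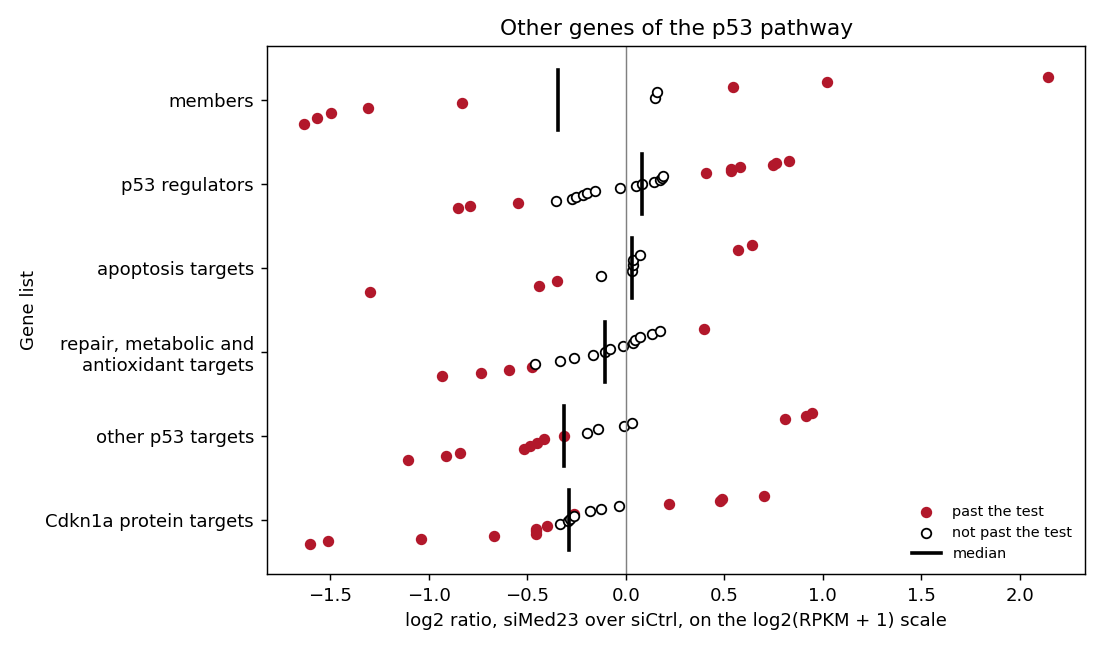
The log2 ratio of knockdown over control for each tested gene of the members and of 5 lists of pathway genes (red, adjusted p under 0.05 by limma; white, not past the test), with the median of each list as a bar. The list medians lie between -0.34 and 0.08, and every list holds genes called in both directions.

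The genes whose products p21 binds or controls were called in both directions. Of 20 such cell cycle genes tested, 9 were lower, 4 higher and 7 not past the test, beside 24.0% lower and 26.3% higher among all tested genes, with a median log2 ratio of -0.29. At 2 times the control SD 3 were lower (Ccnd1, Ccnd2 and Cdk2) and 1 higher (Ccne1), beside 7.03% and 8.33% of all tested genes. At 3 times the counts were 0 and 0, beside 0.792% and 1.21%. Of the D cyclins, which start the cycle, Ccnd2 and Ccnd1 were 42.9 and 52.1 RPKM and 3.81 and 4.40 RPKM in the knockdown libraries, against 146 RPKM and 13.5 RPKM in the control. Ccnd3, the most abundant D cyclin and named after its values were seen, fell less. It was 175 and 186 RPKM in the knockdown libraries, against 216 RPKM in the control (log2 ratio -0.26). Its call as lower was lost at 2 times the control SD (limma adjusted p = 0.128) and without an intensity trend (0.0803). Cdk2, the kinase that p21 inhibits most directly, was 66.8 and 56.0 RPKM in the knockdown libraries, against 127 RPKM in the control (log2 ratio -1.04, limma adjusted p = 0.00188). Ccne1, the cyclin partner of Cdk2, was 22.1 and 23.2 RPKM in the knockdown libraries, against 13.5 RPKM in the control (log2 ratio 0.70). Named after their values were seen, E2f4, Cdk6 and Cdk4 also rose, with log2 ratios of 0.49, 0.48 and 0.22, and Cdk4 was not called after the length and GC correction (adjusted p = 0.357) or without an intensity trend (0.107). Rbl2, Ccna2, E2f1, Rb1 and Cdk1, named in the same way, were the remaining genes called lower. Their log2 ratios were -0.67, -0.46, -0.45, -0.45 and -0.40. After the length and GC correction Rb1 was not called (limma adjusted p = 0.0787).

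The number of calls depended on how much the lone control was taken to vary. With the control given 2 times the SD of a knockdown library, the 5 falls stayed past the test and the rises of Gadd45a and Gadd45b did too, where 7.03% of all tested genes were called lower and 8.33% higher. With 3 times, Cdkn1a (limma adjusted p = 0.0149) and Gadd45b (0.0108) were the 2 of the 10 genes still called, where 0.792% of all tested genes were called lower and 1.21% higher. Mdm2, Ccng1, Trp53inp1, Sesn1 and Gadd45a then had adjusted p = 0.0998, 0.0582, 0.124, 0.188 and 0.155.

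**Figure D5:**
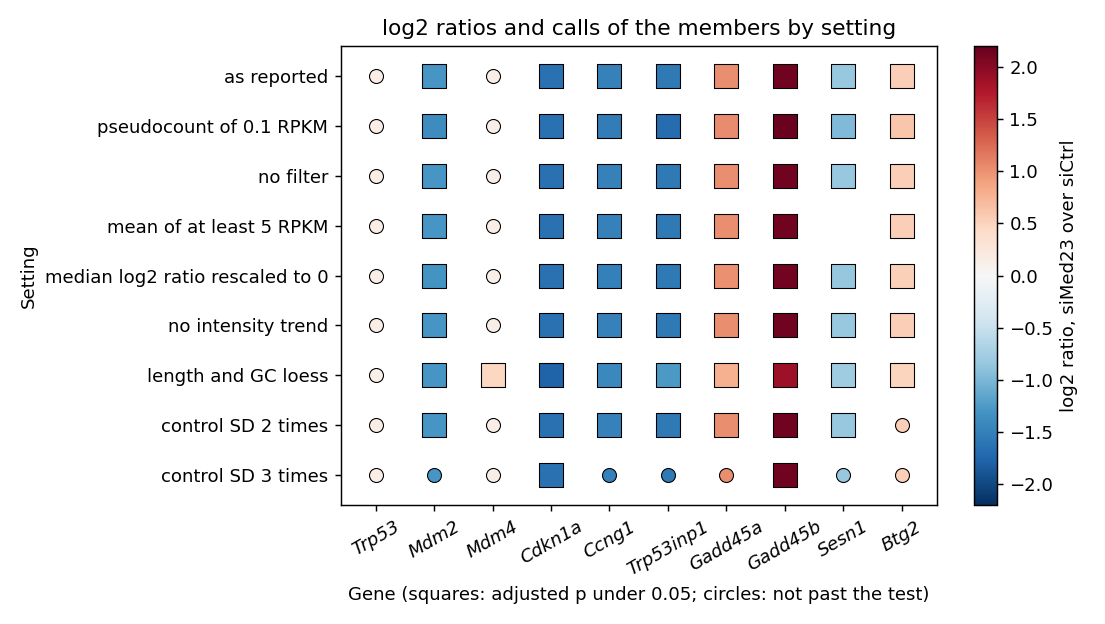
The log2 ratio of knockdown over control (colour) of each gene under each setting of the test, as a square where the adjusted p was under 0.05 and a circle where it was not. The colours keep their sign in every row, Mdm4 becomes a square with the length and GC correction, Sesn1 has no value at the 5 RPKM minimum, and at 3 times the control SD squares are left for Cdkn1a and Gadd45b.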

How the data were processed

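The 3 B16F10 libraries were deposited by the authors as RPKM. Total RNA and standard Illumina libraries are named in the labels' protocols, and CASAVA 1.4, TopHat, Cufflinks and build mm9 in the submitters' processing notes, with no role or order. After sorting, 95.3% of positions agreed between columns within a relative difference of 1e-09, so the RPKM had been quantile normalized. The table's header runs both knockdown names together, so these columns are called the first and second knockdown library by place. The smallest values were above 0, and depth is unknown.

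The filter kept genes whose mean over the libraries reached 1 RPKM, tested as log2(RPKM + 1) with limma 3.58.1 in R 4.3.3 (lmFit, eBayes with trend, 1 residual and 4.37 prior degrees of freedom). Length and GC content came from GENCODE M21 (longest transcript, 98.1% of genes matched by ID, all 10 members). A larger control SD was entered in the standard error. The limma step was tested on simulated data in which the control was given the SD of the knockdown libraries. That run could not check whether the real control varies more. Members and lists were chosen with earlier results of these data known. The named genes were the members, Med23, every paralog and up to 4 genes per list with the largest smaller change of both libraries. Promoter windows came from RefSeq GRCm38.p6, a build other than mm9. Tables were read with Python 3.11.15 and pandas 2.3.3.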

Additional observations from a re-analysis of the deposited data

How the results depend on the processing

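The log2 ratios of the 10 members kept their sign under all settings run. Calls of all 10 stayed on their side of the threshold with a pseudocount of 0.1 RPKM, no filter, libraries rescaled to a median log2 ratio of 0 and no intensity trend, as did the 9 tested at a minimum of 5 RPKM. Across tested genes the log2 ratio had a Spearman correlation of -0.36 with transcript length and 0.18 with GC content. With the length and GC correction Mdm4 became a call. The ratios of Mdm4 and Cdkn1a grew in size, to 0.48 and -1.77, and those of the other members shrank. Among these, Gadd45a went from 1.02 to 0.78, Gadd45b from 2.15 to 1.89 and Trp53inp1 from -1.57 to -1.26. The members called lower and higher were 1 and 1 with a control SD of 3 times that of a knockdown library, against 5 and 3 as reported. Over all genes, 2332 were called lower and 2556 higher as reported, 683 and 810 with a control SD of 2 times, and 77 and 118 with 3 times. At a minimum of 5 RPKM 1494 were called lower, with fewer genes tested. The count of members at least 2-fold higher in both libraries was 1. It ranged from 1 to 2 when 1 knockdown library was left out, since Gadd45a was 2-fold higher in the second library alone, and was 3 at a fold limit of 1.5. Leaving out a library left no residual degree of freedom, so those are values with no test. Of the 12 paralog entries 0 were called lower and 2 higher with 3 times the control SD, beside 0.792% and 1.21% of all tested genes. The higher ones were Gadd45g and the second Tob2 entry, an ID with no match in GENCODE M21. No paired analysis was possible because the control has 1 library and no number in its label.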

Other observations

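Some pathway genes under the filter of 1 RPKM are given as values only. Klf4, a stress-responsive transcription factor, was 0.828 and 0.781 RPKM in the knockdown libraries and 0.191 RPKM in the control. Fas, the death receptor, was 0.451 and 0.218 RPKM in the knockdown libraries and 0.0398 RPKM in the control. Gdf15, a secreted stress factor that p53 induces strongly in many cells, was 0.214 and 0.166 RPKM in the knockdown libraries and 0.162 RPKM in the control. Perp, a p53 target of the cell surface, was 0.0928 and 0.0504 RPKM in the knockdown libraries and 0.214 RPKM in the control.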
